A study of Mus musculus with 18 samples.

Results

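The fibrinogen and von Willebrand factor axis was described here as 6 genes chosen by name: Fga, Fgb and Fgg, which encode the Aα, Bβ and γ chains of fibrinogen, Vwf, which encodes von Willebrand factor, F8, which encodes coagulation factor VIII, and Adamts13, which encodes the protease that cuts von Willebrand factor. They were covered by 9 of the 39429 probes of a whole mouse genome array, and all 6 were among the 24820 genes tested. Livers came from male C57BL/6 mice of 6 weeks that had fasted for 12 h and then received by mouth a single dose of saline (control), 270 mg/kg monocrotaline (MCT 270) or 330 mg/kg monocrotaline (MCT 330), and were taken 48 h later. Each group had 8 mice, of which 3 per group were labelled as the source of an array. Monocrotaline is a plant pyrrolizidine alkaloid that the liver converts to a reactive pyrrole, and it is used as a chemical model of injury to the sinusoidal endothelium. Whole liver RNA was amplified, labelled with the dye Cy3 and hybridised to 9 arrays, 1 per labelled mouse.

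Fibrinogen is a soluble plasma protein made by hepatocytes from pairs of its chains, and thrombin turns it into fibrin, the mesh of a clot. Its genes are known acute phase genes, raised by interleukin-6 through the transcription factor Stat3. Von Willebrand factor is made by endothelial cells and megakaryocytes, is stored in Weibel-Palade bodies and platelet granules, and as long multimers ties platelets to injured vessel walls. It also carries factor VIII, the cofactor of factor IX, in plasma; in the liver, factor VIII is made mainly by sinusoidal endothelial cells. Adamts13, made in the liver mainly by stellate cells, shortens the multimers of von Willebrand factor.

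The sequences before the start sites are shown for the fibrinogen genes, of which 1 passed the test and the others did not, and for Adamts13, for which the window held a match to the same motif. RefSeq windows of build GRCm38.p6 were found for 5 of the 6 genes. Those shown span chr3:83025903-83026152 on the plus strand for Fga, chr3:83049864-83050113 on the minus strand for Fgb, chr3:83007474-83007723 on the plus strand for Fgg and chr2:26973166-26973415 on the plus strand for Adamts13. Each is the 250 bases before the start site, 5′ to 3′, and capitals mark the interleukin-6 response element CTGGGAA and the half-site GTTAAT of the hepatocyte factor HNF1, each searched on both strands.
Fga: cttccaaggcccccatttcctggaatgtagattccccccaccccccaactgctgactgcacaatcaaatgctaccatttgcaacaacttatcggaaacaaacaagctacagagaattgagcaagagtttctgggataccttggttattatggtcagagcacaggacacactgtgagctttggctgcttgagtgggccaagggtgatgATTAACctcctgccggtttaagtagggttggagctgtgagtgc
Fgb: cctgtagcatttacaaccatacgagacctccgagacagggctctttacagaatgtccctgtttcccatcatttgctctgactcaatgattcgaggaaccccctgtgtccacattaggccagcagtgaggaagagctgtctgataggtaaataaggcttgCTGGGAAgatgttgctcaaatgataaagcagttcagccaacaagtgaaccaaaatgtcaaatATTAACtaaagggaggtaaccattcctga
Fgg: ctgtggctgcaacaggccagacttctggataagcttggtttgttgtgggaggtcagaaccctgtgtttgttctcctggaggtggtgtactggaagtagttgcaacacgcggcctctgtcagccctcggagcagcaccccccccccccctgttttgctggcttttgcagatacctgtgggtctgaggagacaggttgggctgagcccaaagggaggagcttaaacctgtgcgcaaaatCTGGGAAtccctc
Adamts13: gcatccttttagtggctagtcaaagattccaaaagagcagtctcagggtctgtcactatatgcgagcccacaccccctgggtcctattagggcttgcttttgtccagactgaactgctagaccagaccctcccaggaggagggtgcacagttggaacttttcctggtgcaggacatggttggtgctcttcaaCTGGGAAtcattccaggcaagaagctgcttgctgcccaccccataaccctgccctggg

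CTGGGAA matched once each in the windows of Fgb, Fgg and Adamts13, at 85 to 91, 7 to 13 and 52 to 58 bases before the start site. These letters were not in the Fga window. Only this spelling of the element was searched, so the Fga window may hold another form of it. GTTAAT matched once each on the opposite strand in the windows of Fga, at 38 to 43 bases, and Fgb, at 24 to 29 bases. The F8 window on chromosome X held neither motif. Of all 32851 windows of the same length, 9.10% held CTGGGAA and 6.43% held GTTAAT. TTNNGNAA, the core bound by C/EBP factors, was in 36.8% of all windows and matched 1 time for Fga, 2 times for Fgb and 1 time for Adamts13, and the TATA box TATAAA was in 12.4% and in none of the 5. None of these matches overlapped another. These matches are descriptions of letters; the arrays did not measure binding.

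The arrays differed in brightness. The 75th percentile of the processed signal was 663, 533 and 498 in control, 518, 693 and 647 at MCT 270, and 696, 698 and 703 at MCT 330. Between 64.0% and 80.9% of spots lay well above background, and 0 spots were saturated. The precision is limited by the number of arrays. Hepatocyte markers were all measured (10 of 10), with a summed scaled level of 2111 to 2452 in control, 1942 to 2442 at MCT 270 and 1708 to 2006 at MCT 330. Levels below are scaled levels, the processed signal divided by the array's own 75th percentile, and log2 fold changes are differences of their log2 values.

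The 9 arrays did not behave as 9 separate livers. Replicates 2 and 3 differed by a robust SD of 0.0463 in control, 0.0420 at MCT 270 and 0.0539 at MCT 330 on the log2 scale, less than the 0.0695, 0.0850 and 0.0734 between repeated spots of a probe on the same arrays. Replicate 1 differed from its group's replicates 2 and 3 by 0.327 and 0.331 in control, by 0.238 and 0.239 at MCT 270, and by 0.0804 and 0.0787 at MCT 330. Arrays that differed by at most 1.1 times spot noise were averaged and counted as 1 sample, so control and MCT 270 had 2 samples each and MCT 330 had 1. MCT 330 replicate 1 exceeded the limit first set for joining in 2 of 5 brightness classes, by a ratio of up to 1.06, and was joined after these ratios had been seen. It lay over 1 log2 unit from replicates 2 and 3 at 95 and 106 probes, against 8 between those replicates. In control these counts were 815, 833 and 4, and at MCT 270 374, 397 and 2. Deviations of repeated spots from their probe's mean correlated at 0.278 between MCT 330 replicates 1 and 2, and at 0.734 between replicates 2 and 3. Between replicates 1 and 2 they correlated at 0.378 in control and 0.543 at MCT 270. The spread behind every p-value is therefore that of 5 samples, and the MCT 330 group, having 1 sample, takes its spread from the other groups. The scan recorded in the headers never held MCT 330 arrays together with arrays of another group, so scan and dose cannot be told apart for MCT 330. In each group, replicate 3 had the slide position of replicate 2 in another scan.

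**Figure D1:**
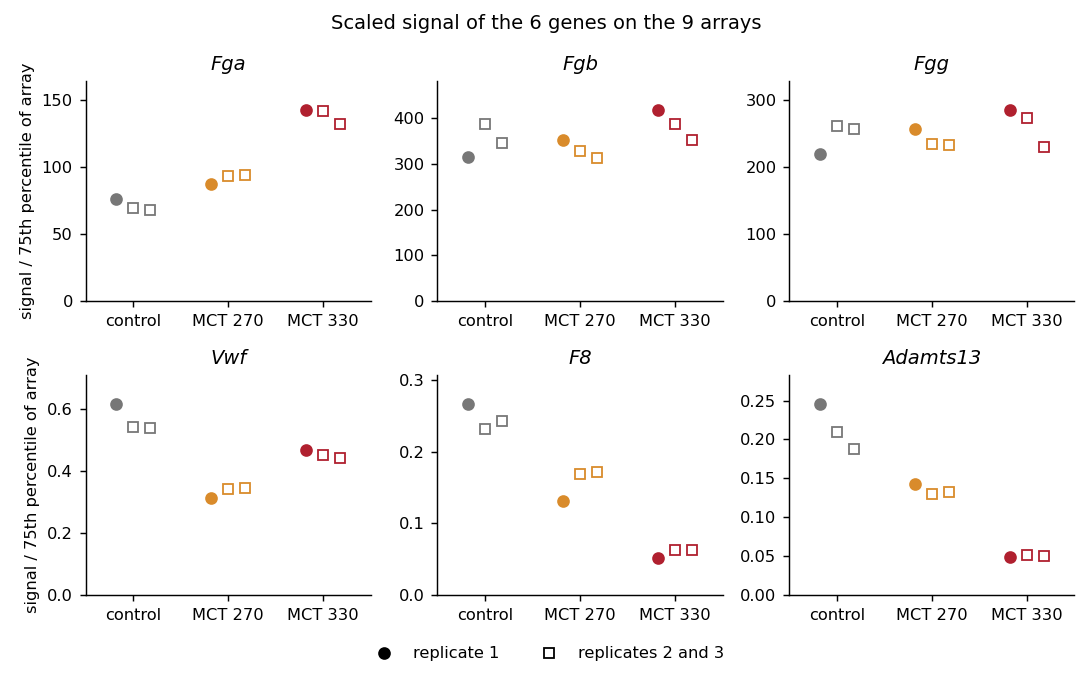
Scaled signal (processed signal over the array's 75th percentile, linear axes from 0) of the 6 genes on each of the 9 arrays, with filled circles for replicate 1 and open squares for replicates 2 and 3. Fga lay at 132 to 143 on the MCT 330 arrays and at 67.7 to 76.2 on the control arrays, F8 and Adamts13 were lowest at MCT 330 and Vwf was lowest at MCT 270.

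In comparison with control, 3 of the 6 genes changed at MCT 330 by limma's test with Benjamini-Hochberg adjustment: Fga rose, and F8 and Adamts13 fell. Among all 24820 genes, 33.4% passed the same test, 9.5% higher and 23.9% lower, so the share of the axis is near the background. Of the 8297 genes called, 28.4% were higher. Quantile normalization gave 41.8% and normexp background correction 48.5%. Normexp was run with an offset of 50 added to the signals, which makes log2 changes of dim probes smaller. The median of all genes lay at -0.25 on the log2 scale, and at -0.05 after quantile normalization. Relative to that median of -0.25, Fga lay at 1.19, Fgb at 0.43, Fgg at 0.39, Vwf at -0.10, F8 at -1.83 and Adamts13 at -1.88.

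At MCT 270 against control, 0 of the 6 genes and 0 of all genes (0%) passed limma's adjusted test, with a lowest adjusted p of 0.0584. At an unadjusted p under 0.05, Vwf, F8 and Adamts13 stood lower, 3 of 6, against 8.78% lower among all genes and 18.6% in both directions. Between the doses, MCT 330 against MCT 270, 2 of 6 passed the adjusted test, F8 and Adamts13, both lower, against 22.1% of all genes in both directions and 17% lower. The 3 comparisons share samples: MCT 330 enters both of its comparisons, and control serves both doses.

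**Figure D2:**
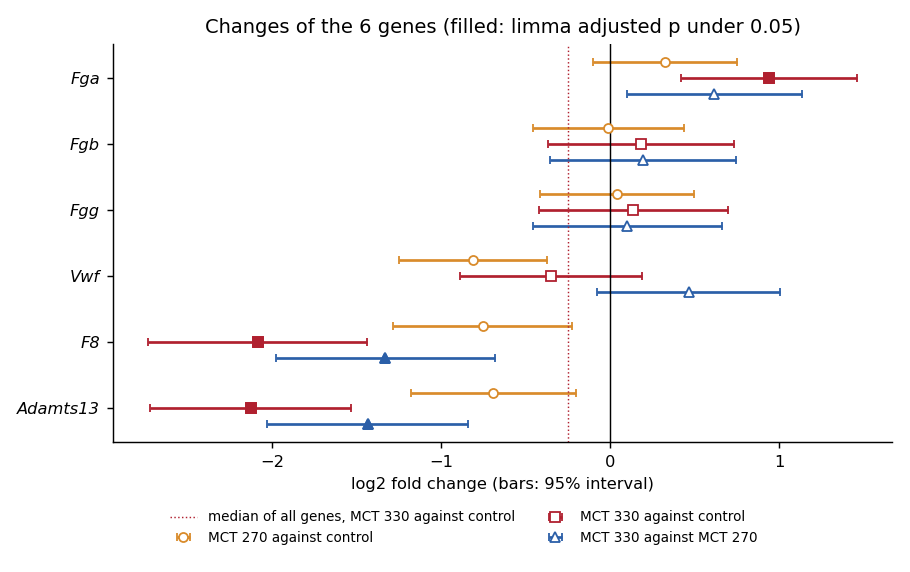
Log2 fold change of each gene (horizontal axis) in the 3 comparisons, with bars for the 95% interval from limma and filled symbols for an adjusted p under 0.05; the dotted line is the median of all genes at MCT 330 against control, -0.25. The intervals of Fgb and Fgg include 0 in all 3 comparisons, and those of F8 and Adamts13 lie below 0 in all 3. That of Vwf lies below 0 at MCT 270 only. The intervals are not adjusted for the number of genes, and none of the genes passed the adjusted test at MCT 270.

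Of the fibrinogen chain genes, Fga passed the test at MCT 330, and Fgb and Fgg did not. Fga, the Aα chain gene, had scaled levels of 76.2, 69.1 and 67.7 on the control arrays, 87.1, 93.5 and 94.2 at MCT 270 and 143, 141 and 132 at MCT 330. Each dose lay above the one before it with no overlap between arrays. These arrays count as 5 samples, and the share of all genes without such overlap was not counted. The log2 fold change was 0.94 ± 0.20 (SE, n = 1 and 2) at MCT 330 against control, with a limma adjusted p of 0.0269, and 0.32 ± 0.16 (n = 2 and 2) at MCT 270, with an adjusted p of 0.362. The MCT 270 value was 0.57 with quantile normalization, 0.60 with normexp and 0.15 with the mean of both probes, none past the test. The call at MCT 330 was lost with no filter on dim probes (adjusted p 0.0699), with the mean of both probes (0.0535) and without MCT 270 replicate 1 (0.0732). MCT 330 against MCT 270 gave 0.62 ± 0.20, with an adjusted p of 0.0892.

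A second Fga probe on the same transcript, dimmer but well above background on every array, gave another picture at the lower dose. It had 7.19, 8.44 and 8.50 in control, 5.40, 10.5 and 11.01 at MCT 270 and 16.0, 16.8 and 16.9 at MCT 330. MCT 270 replicate 1 lay below every control array on this probe and replicates 2 and 3 above. Its log2 fold change was -0.03 ± 0.36 at MCT 270 and 1.08 at MCT 330, with adjusted p of 0.968 and 0.125. Both probes were highest at MCT 330.

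Fgb, the Bβ chain gene, had 315, 386 and 345 in control, 352, 328 and 313 at MCT 270 and 418, 386 and 351 at MCT 330. Arrays of all 3 groups overlapped. Its log2 fold change was 0.18 ± 0.21 at MCT 330 against control (95% interval -0.37 to 0.73, adjusted p 0.537) and -0.01 ± 0.17 at MCT 270 (-0.46 to 0.44, adjusted p 0.976; 0.24 with quantile normalization). At MCT 330 it was 0.52 with either alternative scaling, and passed with normexp background correction (adjusted p 0.0266) but not with quantile normalization (0.0930). The probe reached at most 37.3% of the scanner's saturation value.

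Fgg, the γ chain gene, had 220, 261 and 257 in control, 256, 234 and 233 at MCT 270 and 286, 274 and 231 at MCT 330. Its groups overlapped as well. The log2 fold change was 0.14 ± 0.21 at MCT 330 against control (95% interval -0.42 to 0.69, adjusted p 0.648) and 0.04 ± 0.17 at MCT 270 (-0.42 to 0.49, adjusted p 0.925). With quantile normalization these were 0.47 and 0.29, and with normexp 0.39 and 0.23, none past the test. At MCT 270 in the main values the intervals of Fgb and Fgg include the 0.32 of Fga. At MCT 330 they end below its 0.94, but both overlap the 95% interval of Fga, 0.42 to 1.46. The difference between chains was not tested.

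A ratio within an array is not changed by dividing the array by its 75th percentile, but it is changed by quantile normalization and by normexp. The log2 ratio of Fgb over Fgg stayed within 0.05 of the control mean in all 5 samples, and within 0.132 of it with normexp, and these chains were the closest pair of the axis, with a root mean square difference of 0.036 between their centred log2 values. The ratio of Fga over Fgb lay at 0.19 and -0.19 in the control samples, 0.21 and 0.46 at MCT 270 and 0.76 at MCT 330. The MCT 330 sample lay above both control samples, also with quantile normalization (0.81) and with normexp (0.85). Ratios were not tested, because the MCT 330 group is 1 sample.

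The hepatocyte and acute phase markers give the setting of these 3 genes. Counts at MCT 330 in this and the lists below stand against 9.5% higher and 23.9% lower among all genes. In bulk liver, fewer cells of a type and less RNA per cell cannot be told apart. Of 10 hepatocyte markers, 0 were higher and 2 lower at MCT 330, with a median log2 fold change of -0.35 against -0.25 for all genes; with quantile normalization the list's median was -0.02, which is 0.032 above that of all genes, and with normexp it was -0.11. Alb (albumin) lay at -0.31 ± 0.22 and Trf (transferrin) at -0.12 ± 0.23, neither past the test, and Ass1, a urea cycle enzyme, fell by 1.25 on the log2 scale (adjusted p 0.0219). Of 14 other acute phase genes, 8 were higher and 0 lower, with a median of 1.74. Lcn2, the iron-siderophore binding protein lipocalin 2, rose by 5.27 ± 0.77 (adjusted p 0.0131), while Hp (haptoglobin) lay at 0.22 ± 0.23 and Itih4 at -0.21 ± 0.25, neither past the test. The summed acute phase level was 576 to 668 in control, 630 to 826 at MCT 270 and 1228 to 1355 at MCT 330. The part of these cells in the fibrinogen values was not tested.

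Among 12 genes of fibrinogen assembly and transcription with the interleukin-6 pathway, 1 was higher and 1 lower at MCT 330. Among all genes, 9.5% were higher and 23.9% lower. Cebpd, a C/EBP factor of the acute phase, rose by 1.195 ± 0.24 (adjusted p 0.0247). Il6ra, the interleukin-6 receptor chain, fell by 3.01 on the log2 scale at MCT 330 (SE 0.29, adjusted p 0.00878) and lay at -2.25 ± 0.24 at MCT 270 (adjusted p 0.0812). Of 14 genes of fibrin formation, crosslinking and lysis, 4 were higher and 2 lower, with a median of 0.23 (0.45 with quantile normalization and 0.43 with normexp). F13a1, the A subunit of the crosslinking factor XIII, was not well above background on any control array and was at least 21.2-fold higher at MCT 330 (adjusted p 0.00875). F13b, its carrier subunit, fell by 1.41 ± 0.20 on the log2 scale (adjusted p 0.0122). The adjusted p of F13a1 comes from the fit to the signals as measured and does not test the bound. Plat and Thbd, higher, and Plg, lower, also passed and were named after their values were seen; they encode a plasminogen activator, thrombomodulin and plasminogen.

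Vwf was lowest at MCT 270. Its scaled levels were 0.617, 0.542 and 0.538 in control, 0.314, 0.343 and 0.345 at MCT 270 and 0.467, 0.452 and 0.441 at MCT 330. The MCT 270 arrays were the lowest, the MCT 330 arrays lay between, and no group overlapped another. As for Fga, this rests on 5 samples, without the share of all genes beside it. The log2 fold change was -0.81 ± 0.17 (n = 2 and 2) at MCT 270 (adjusted p 0.127) and -0.35 ± 0.21 (n = 1 and 2) at MCT 330 (95% interval -0.89 to 0.19, adjusted p 0.244). MCT 330 against MCT 270 gave 0.46 ± 0.21 (adjusted p 0.173). Within the scan that held 2 arrays of each group, MCT 270 against control was -0.82, and within the scan that held 1 of each it was -0.64. With MCT 330 replicate 1 as a sample of its own, Vwf passed at MCT 270 (adjusted p 0.0328) and between the doses (0.0317).

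Endothelial cells and platelets are both possible sources of Vwf RNA. At MCT 330 the medians of the endothelial lists lay below the -0.25 of all genes, and that of the platelet list lay above it. The counts of markers stand against 23.9% lower and 9.5% higher among all genes. Of 10 pan-endothelial markers, 0 were higher and 4 lower at MCT 330 (median -0.64, and -0.35 with normexp), and the summed level was 12.8 to 13.2 in control, 9.54 to 10.6 at MCT 270 and 8.46 to 8.58 at MCT 330. Egfl7 fell by 0.82 ± 0.19 on the log2 scale (adjusted p 0.0338) and Ptprb, an endothelial phosphatase, fell by 2.89 ± 0.23 (adjusted p 0.00875), while Cdh5, the cadherin of endothelial junctions, lay at 0.71 ± 0.20 (adjusted p 0.0502). Of 10 markers of large vessels and the central vein, 1 was higher and 4 lower (median -0.85, and -0.34 with normexp), and their sum was 3.88 to 3.96 in control, 2.69 to 3.08 at MCT 270 and 2.28 to 2.32 at MCT 330. Edn1 (endothelin 1) rose by 2.85 ± 0.59 (adjusted p 0.026), and Rspo3 fell by 2.03 ± 0.23 (adjusted p 0.00939) and Plvap fell by 1.03 ± 0.20 (adjusted p 0.0234) on the log2 scale. Sema3g was not well above background in control. Without MCT 270 replicate 1, 1 pan-endothelial marker and 2 of the large vessel markers were lower.

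Of 10 platelet and megakaryocyte markers, 3 were higher and 0 lower at MCT 330, with a median of 1.81. With normexp 5 were higher and the median was 0.51. The summed level was 1.40 to 1.53 in control, 1.27 to 1.76 at MCT 270 and 3.58 to 3.78 at MCT 330. Itga2b, Gp1ba, Gp5, Gp6 and Tubb1 were not well above background on any control array. Pf4, the chemokine platelet factor 4, rose by 1.85 ± 0.34 (adjusted p 0.0194), Gp5, a subunit of the platelet receptor for von Willebrand factor, was at least 2.70-fold higher (adjusted p 0.00875), and Gp9 of the same receptor lay at -0.25 ± 0.34. The adjusted p of Gp5 comes from the fit to the signals as measured and does not test the bound. The list of 11 platelet receptors, which shares most of its genes with these markers, had the same 3 higher and 0 lower. The part of these cells in the Vwf values was not tested.

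Of 11 measured genes of von Willebrand factor storage, secretion and endothelial transcription, 3 were higher and 2 lower at MCT 330. The median was 0.41, and among all genes 9.5% were higher and 23.9% lower. With normexp 3 of the list were higher and 0 lower. Angpt2, the angiopoietin kept with von Willebrand factor in Weibel-Palade bodies, rose by 4.10 ± 0.36 (adjusted p 0.00875) and lay at 0.97 ± 0.30 at MCT 270. Klf4, a transcription factor of endothelium and other cells, rose by 2.24 ± 0.23 (adjusted p 0.00888). Rab3d was also higher, and Stxbp5 and Selp lower, named after their values were seen. Myrip and Erg were not well above background on all arrays of any group.

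F8 fell at MCT 330. Its scaled levels were 0.267, 0.232 and 0.242 in control, 0.131, 0.169 and 0.171 at MCT 270 and 0.0523, 0.0634 and 0.0628 at MCT 330. All MCT 330 arrays lay below all MCT 270 arrays, and these below all control arrays, over arrays that count as 5 samples. How many of all genes do the same was not counted. The log2 fold change was -2.09 ± 0.25 (n = 1 and 2) at MCT 330 against control (adjusted p 0.00976) and -0.75 ± 0.20 (n = 2 and 2) at MCT 270 (adjusted p 0.171). MCT 330 against MCT 270 gave -1.33 ± 0.25 (adjusted p 0.0289), a call lost with quantile normalization (-0.95, adjusted p 0.0674), with normexp (-0.48, 0.0809), with no filter on dim probes (0.0802) and without MCT 270 replicate 1 (0.103). The value at MCT 330 against control was -0.98 with normexp background correction, still past the test (adjusted p 0.0128). Within the scan that held 2 arrays of each group, MCT 270 against control was -0.74, and within the scan with 1 of each it was -0.50. The brightest F8 probe was well above background on all 9 arrays, and the other F8 probe, for another transcript, on none.

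Markers of sinusoidal endothelium moved beside F8. At MCT 330, 8 of 10 were lower and 0 higher, with a median of -2.11, and their summed level was 35.9 to 37.4 in control, 12.97 to 15.8 at MCT 270 and 8.26 to 8.43 at MCT 330. Stab2, a scavenger receptor that clears von Willebrand factor and factor VIII, fell by 2.09 ± 0.20 (adjusted p 0.00878), Clec4g, a lectin, fell by 3.45 ± 0.29 (adjusted p 0.00875) and Ehd3 fell by 3.78 ± 0.30 (adjusted p 0.00875) on the log2 scale. At MCT 270 the list's median was -1.26, against -0.75 for F8. With normexp at MCT 330, F8 (-0.98) lay nearer to the median of the stellate markers below (-0.90) than to the sinusoidal one (-1.90). The processed signals of F8 at MCT 330, 36.4 to 44.2, lay below the normexp offset of 50. Which list lay nearer therefore differed between settings and is not a result about the gene. All 10 markers stayed above background in every group. The part of these cells in the F8 value was not tested.

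Of 12 partners, transport factors and clearance receptors of von Willebrand factor and factor VIII, 1 was higher and 5 lower at MCT 330. Among all genes, 9.5% were higher and 23.9% lower. The list's median was -0.67. With quantile normalization 3 were lower and the median was -0.34, with normexp it was -0.30, and without MCT 270 replicate 1, 2 were lower. Besides Stab2, Lgals3, a galectin that binds von Willebrand factor, rose by 1.70 ± 0.28 (adjusted p 0.0159). The other genes that were lower, named after their values were seen, were Stab1, Asgr1, Asgr2 and F9, which encode a scavenger receptor, both chains of the asialoglycoprotein receptor and factor IX.

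Adamts13 fell at MCT 330 as well. Its scaled levels were 0.246, 0.209 and 0.187 in control, 0.142, 0.130 and 0.132 at MCT 270 and 0.0490, 0.0517 and 0.0508 at MCT 330. No group overlapped another, over arrays that count as 5 samples, and the share of all genes for which this holds was not counted. The log2 fold change was -2.13 ± 0.23 (n = 1 and 2) at MCT 330 against control (adjusted p 0.00895) and -0.69 ± 0.19 (n = 2 and 2) at MCT 270 (adjusted p 0.171). MCT 330 against MCT 270 gave -1.44 ± 0.23 (adjusted p 0.0234), a call lost with normexp (-0.45, adjusted p 0.0674), with no filter on dim probes (0.0726) and without MCT 270 replicate 1 (0.113). With normexp background correction MCT 330 against control was -0.91 (adjusted p 0.0111). Within the scan that held 2 arrays of each group, MCT 270 against control was -0.74, and within the scan with 1 of each it was -0.50. The other Adamts13 probe was not well above background on any array.

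Markers of stellate cells were mostly, but not all, lower beside Adamts13. At MCT 330, 1 of 12 was higher and 7 lower, with a median of -1.82 (-0.90 with normexp), and their summed level was 28.8 to 30.7 in control, 12.2 to 14.7 at MCT 270 and 10.2 to 10.4 at MCT 330. Lrat, which stores vitamin A as ester, fell by 4.45 ± 0.41 (adjusted p 0.00875), Colec11 fell by 3.00 ± 0.22 (adjusted p 0.00875) and Ecm1 fell by 1.25 ± 0.22 (adjusted p 0.0176) on the log2 scale. The marker that was higher was Des, at 1.04 ± 0.18. Rgs5 (1.01), Hgf (-0.30), Pdgfrb (-0.42) and Reln (-2.16) did not pass. These markers were named after their values were seen. At MCT 270 the list's median was -0.42, against -0.69 for Adamts13, and 4 of 12 markers lay above 0. At MCT 330 the sinusoidal median, -2.11, lay nearer to Adamts13 (-2.13) than the stellate median did. With normexp the stellate median was the nearer one, with Adamts13 at -0.91 and the sinusoidal median at -1.90. The processed signals of Adamts13 at MCT 330, 34.1 to 36.0, also lay below the normexp offset of 50. All 12 markers were above background in every group. The part of these cells in the Adamts13 value was not tested.

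**Figure D3:**
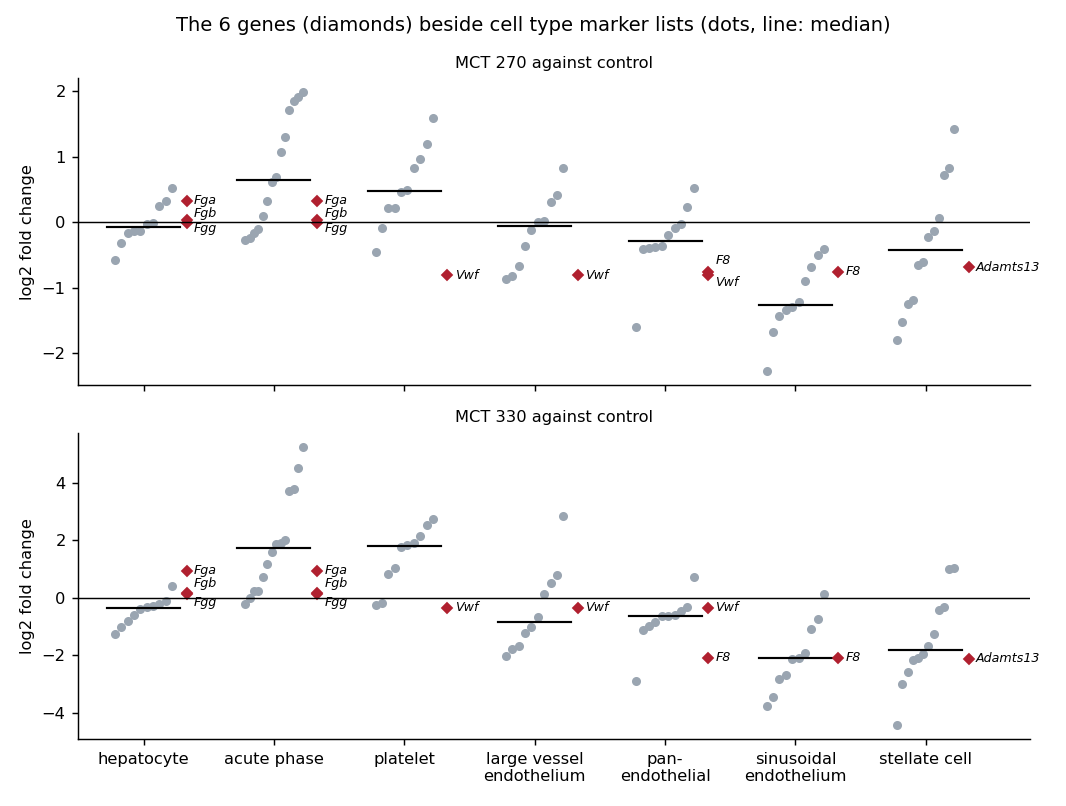
Log2 fold changes of the 6 genes (diamonds) beside the marker lists of cell types known to make their products (dots, 1 per marker; line, median), at MCT 270 (upper) and MCT 330 (lower) against control. At MCT 330, F8 lies at -2.09 and the sinusoidal median at -2.11, against -0.98 and -1.90 with normexp. Adamts13 lies at -2.13 and the stellate median at -1.82, against -0.91 and -0.90 with normexp, and Fga lies at 0.94 and the acute phase median at 1.74.

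Other members of the ADAMTS family were measured for 8 of 10 genes, of which 2 were higher and 2 lower at MCT 330. The shares among all genes were 9.5% higher and 23.9% lower. Adamts1, a protease that cuts matrix proteoglycans, rose by 2.94 ± 0.18 (adjusted p 0.00875), and Adamts4, an aggrecanase, was not well above background on any control array and was at least 1.91-fold higher (adjusted p 0.00875). For Adamts4 the adjusted p comes from the fit to the signals as measured and does not test the bound. Adamts2 and Adamts17 were lower, named after their values were seen. Adamts5 and Adamts10 were not well above background on all arrays of any group. Neutrophil markers were also followed: 5 of 10 were higher and 1 lower at MCT 330 (median 2.01, and 0.49 with normexp), with S100a9 at 5.57 ± 0.63 (adjusted p 0.00929), S100a8 at 5.81 ± 0.49 (adjusted p 0.00875) and Csf3r at -0.29 ± 0.24. Their sum was 8.90 to 11.9 in control, 8.48 to 9.42 at MCT 270 and 40.1 to 41.4 at MCT 330. Cxcr2, Mmp9 and Ngp were not well above background in control, Mmp9 and Ngp at MCT 270, and Mpo at MCT 330.

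The ratio of Vwf over the gene of its protease was highest in the MCT 330 sample. The log2 ratio of Vwf over Adamts13, set to the control mean, was -0.06 and 0.06 in the control samples, -0.25 and 0.01 at MCT 270 and 1.78 at MCT 330. The ratio of Vwf over F8 was 0.01 and -0.01 in control, 0.07 and -0.18 at MCT 270 and 1.74 at MCT 330. At MCT 330 these ratios were 1.47 and 1.44 with quantile normalization and 0.66 and 0.73 with normexp. The normexp offset of 50 makes changes of dim probes smaller, F8 and Adamts13 among them. All 3 MCT 330 arrays lay above all other arrays in both ratios, under each of these scalings. These 3 arrays count as 1 sample, and the share of gene pairs that separate in this way was not counted. The ratio of F8 over Adamts13 was -0.07 and 0.07 in control, -0.31 and 0.19 at MCT 270 and 0.04 at MCT 330, so the MCT 330 sample lay between the control samples; with normexp it lay below both, at -0.068. These ratios describe unequal change and were not tested.

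**Figure D4:**
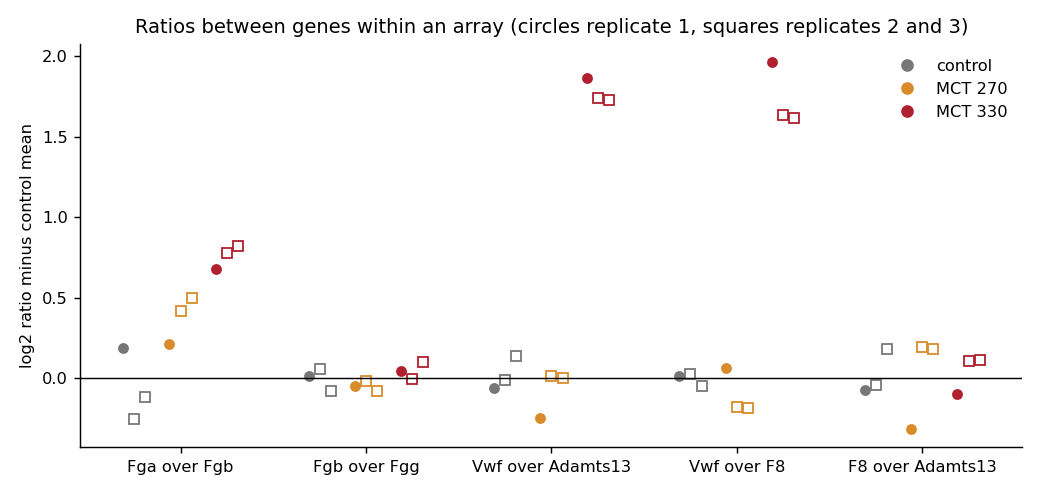
Log2 ratio between 2 genes on the same array, minus the control mean (vertical axis), for 5 gene pairs; circles are replicate 1 and squares replicates 2 and 3. Vwf over Adamts13 lies at 1.73 to 1.87 on the MCT 330 arrays and Vwf over F8 at 1.61 to 1.96, while over all 9 arrays Fgb over Fgg lies at -0.08 to 0.10 and F8 over Adamts13 at -0.31 to 0.19.

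The genes most like each member were sought among 13732 other genes well above background on all 9 arrays, by the root mean square difference of centred log2 values over the 5 samples. For the mean of the fibrinogen chains they were Cep57 (0.0207), Ttpal (0.0268) and Usp36 (0.0315), against a median of 0.359 over all candidates. For Vwf they were Slc12a2 (0.0862), Rmrp (0.0865) and Stat5a (0.0948), against a median of 0.494. For F8 they were Calca (0.0793), Slc13a3 (0.0812) and Col6a1 (0.102), against a median of 0.743. For Adamts13 they were Slc12a8 (0.0345), Gtpbp3 (0.0668) and Ngfr (0.0672), a stellate marker of the list used here, against a median of 0.754. F8 and Adamts13 differed from each other by 0.170. With 5 samples in 3 groups, these differences describe the group pattern more than the variation within groups.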

How the data were processed

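Agilent Feature Extraction 11.0.1.1 made the deposited intensity values from 1-colour Cy3 scans, with background subtracted and trends removed, per the file headers; they were not scaled between arrays. Of 44397 spots per array, 1377 were controls. Signals were divided by each array's 75th percentile and log2 transformed, outlier spots were left out, and repeated spots averaged. A probe was kept if every array of some group measured it well above background, and a gene took its brightest probe. Systematic names were matched to symbols through RefSeq (21460 of 33258). Groups were compared with limma 3.58.1 in R 4.3.3 (lmFit, eBayes, 1 fit over 3 groups), with Benjamini-Hochberg adjusted p under 0.05. Only the limma fit was tested on simulated data, not the scaling, probe choice, background filter or joining of arrays.

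Arrays were to be averaged where they differed by no more than repeated spots of a probe (a ratio of at most 1 in every brightness class). This limit was raised to 1.1 after the ratios were seen, which joined MCT 330 replicate 1; the fit with it as its own sample is given as an alternative. Before averaging, 173 of its spots were left out for a distance of over 1 log2 unit to each of the other MCT 330 arrays, none of them of the 6 genes. Members and gene lists were chosen with earlier results of these data known. From each gene list the 2 genes with the smallest p that passed at MCT 330 were named, and from each marker list the 2 brightest and the 1 with the largest change. Promoter motifs were chosen after the sequences had been displayed. Where no array of a group measured a gene well above background, its fold is a bound. It was computed against the array's lowest well-measured signal or the gene's own signal, whichever was higher. The adjusted p beside a bound comes from the fit without this floor. Alternatives covered scaling, background, filters, probes, joining, replicate number, scan and leaving out each array. Normexp used an offset of 50. The miRNA arrays were not used here. A listed gene that passed is not reported here by name.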

Additional observations from a re-analysis of the deposited data

How the results depend on the processing

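The limits are the 5 samples, the single MCT 330 sample and the scan that cannot be told apart from it. At MCT 330 against control, F8 and Adamts13 kept their direction and passed under all 20 alternatives (log2 fold changes -2.14 to -0.98 and -2.17 to -0.91), and Fga passed under 16 of 21, its other probe included (0.92 to 1.38). Fga was lost with the replicate block in the joined samples (adjusted p 0.0521), and with its other probe (0.125), an alternative added after seeing the data, as were those with scan and of the ratios.

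With the 9 arrays as separate samples, 9603, 18138 and 16200 genes passed at MCT 270 against control, MCT 330 against control and MCT 330 against MCT 270, and 4, 4 and 4 of the 6 genes. With MCT 330 replicate 1 as a sample of its own, 1751, 13822 and 11319 genes and 1, 3 and 4 of the 6 passed. Treating scan as a random block over the 9 arrays gave 8929, 18847 and 17064 genes and 4, 4 and 4 of the 6, and scan as a fixed block at MCT 270 gave 4730 genes and 3 of the 6. The fits over separate arrays, with or without scan, count arrays that could not be told apart beyond spot noise. The fit with MCT 330 replicate 1 as its own sample does not, since it follows the limit of 1 first set for joining. Normexp and the strictest filter on dim probes gave 503 and 408 genes at MCT 270. With no filter on dim probes, 3677 genes passed at MCT 330 against control, and 0 genes and 0 of the 6 between the doses. Between the doses, 1 of the 6 passed with quantile normalization and 0 with normexp; 22.8% of calls were higher, against 38.6% and 48.9% with these. Leaving out each array in turn gave 0 to 0 genes at MCT 270, 4988 to 8436 at MCT 330 against control, and 0 to 7317 genes and 0 to 2 of the 6 between the doses; the lowest counts at MCT 330 came without MCT 270 replicate 1. Without it, fewer hepatocyte and sinusoidal markers and fewer genes of the fibrin, storage and ADAMTS lists were lower. Fewer platelet, neutrophil and stellate markers and fewer storage genes were higher, while more acute phase genes were higher.

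Same-numbered samples did not deviate together (correlation 0.015, from 1 comparison), so the numbers are not shown to pair the samples. The replicate block over the joined samples gave 0 genes and 0 of the 6 between the doses (F8 adjusted p 0.0596, Adamts13 0.0515), and over the 9 arrays 9385, 18015 and 16046 genes and 4, 4 and 4 of the 6.

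The values that changed sign were those of the fibrinogen genes at MCT 270. Fga lay at -0.034 with its other probe. Fgb lay at 0.24 with quantile normalization, 0.20 with normexp, and between -0.12 and 0.029 without single arrays, with 0.0050 without MCT 270 replicate 3. Fgg lay at -0.025 over the 9 arrays, with the replicate block there and with scan as either block, and between -0.082 and 0.043 without single arrays, with -0.031 without MCT 270 replicate 1. The cause of these differences was not tested. A block for the slide was not run, since the headers used here name scans and positions only.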
